A study of Mus musculus with 12 samples.

Results

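The BH3-only death initiators considered here are the genes Bmf, Bcl2l11, Bbc3, Pmaip1, Bid and Bad. They were chosen by name as mouse genes of the BH3-only branch of the BCL-2 family, and all 6 were found among the 27179 genes of the deposited table by Entrez gene number. All 6 also passed the filter on low counts, so that none of them was left untested among the 13592 genes tested. RNA was measured in mature B cells of the bone marrow of C57BL/6 mice, sorted for high B220, surface IgM and no CD93, with 3 libraries in each of 4 groups. Old wild-type mice were 98, 99 and 100 weeks of age, and young wild-type mice 9, 10 and 11 weeks. Apoptosis-resistant cells (Bak-/- BaxD/D, with Bax deleted) and apoptosis-sensitive cells (Bak-/- Baxfl/fl, with Bax flanked by loxP sites but intact) came from mice of 10 weeks, and both groups lack Bak1. The Cre line that deleted Bax, the cells in which it acts, and the sex of the mice are not given in the sources used here.

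BH3-only proteins start the mitochondrial route to apoptosis. They sense a lack of survival signals, DNA damage or other stress, bind pro-survival proteins such as BCL2 and MCL1 through a short helix called the BH3 domain, and free or directly activate BAX and BAK1, which then open the outer mitochondrial membrane. The proteins differ in how they are switched on. BIM (from Bcl2l11), PUMA (Bbc3) and BID bind the pro-survival proteins and can also act on BAX and BAK1 directly. BMF, NOXA (Pmaip1) and BAD mainly act by occupying pro-survival proteins, and NOXA is selective for MCL1 and A1. BIM is known as the main killer of B cells that recognise self antigen and of B cells short of survival factors, and mice without BMF accumulate B cells.

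Stretches of promoter are shown because Bmf, Bcl2l11 and Bbc3 are the genes the results turn on and because p53 and FOXO factors are known regulators of this family. RefSeq windows (GRCm38.p6) were at hand for 5 of the 6 genes, with 11 windows in all. The 250 bases before each annotated start were searched on both strands for 3 motifs, chosen with results of these data known. These were the FOXO motif GTAAACA, the stress-response motif TGATGNAA, and a p53 core pair, in which both cores begin with C, end with G and have A or T at the 2 positions between, with 6 bases between the cores. Capitals mark the matches. The Bcl2l11 stretch is chr2:128125788-128126037 on the plus strand, the Bbc3 stretches are chr7:16309333-16309582 and chr7:16310011-16310260 on the plus strand, and the Bmf stretch, before the outermost annotated start of that gene, is chr2:118549687-118549936 on the minus strand. Each is written 5′ to 3′ along its gene.
Bcl2l11, FOXO motif: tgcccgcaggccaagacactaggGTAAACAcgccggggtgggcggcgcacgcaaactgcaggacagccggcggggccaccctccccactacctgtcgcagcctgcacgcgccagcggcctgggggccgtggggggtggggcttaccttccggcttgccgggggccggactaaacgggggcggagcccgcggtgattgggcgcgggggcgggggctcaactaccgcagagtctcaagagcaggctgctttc
Bbc3, p53 core pair: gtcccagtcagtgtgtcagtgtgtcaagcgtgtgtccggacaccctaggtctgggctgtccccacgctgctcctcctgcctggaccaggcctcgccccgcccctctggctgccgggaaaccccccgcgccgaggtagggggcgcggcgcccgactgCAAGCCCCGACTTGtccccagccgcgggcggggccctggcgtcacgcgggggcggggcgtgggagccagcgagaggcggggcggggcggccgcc
Bbc3, FOXO motif: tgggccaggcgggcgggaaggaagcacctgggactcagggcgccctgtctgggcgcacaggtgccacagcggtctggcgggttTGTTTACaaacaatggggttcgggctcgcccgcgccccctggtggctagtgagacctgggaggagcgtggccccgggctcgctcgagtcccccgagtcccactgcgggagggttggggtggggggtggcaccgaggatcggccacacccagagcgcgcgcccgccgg
Bmf, no match: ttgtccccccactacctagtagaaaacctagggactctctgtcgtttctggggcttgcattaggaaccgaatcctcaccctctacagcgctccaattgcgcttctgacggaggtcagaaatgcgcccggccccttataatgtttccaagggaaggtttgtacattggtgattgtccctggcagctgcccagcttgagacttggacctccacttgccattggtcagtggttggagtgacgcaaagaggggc
The p53 core pair of Bbc3 lies 94 to 81 bases before an annotated start. The motif GTAAACA lies 227 to 221 bases before a start of Bcl2l11 and, on the other strand, 167 to 161 bases before another start of Bbc3. No match was present in the other windows of Bcl2l11 and Bbc3 or in any window of Bmf, Bid and Bad. Of all 32851 promoter windows, 5.84% held the p53 core pair, 3.17% the FOXO motif and 3.45% the stress-response motif.

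Total counts ran from 13474162 to 23539764 per library. Bax averaged 6.58 ± 1.70 CPM (reads relative to the total of their library, after scaling) in apoptosis-resistant cells and 70.7 ± 25.5 CPM in apoptosis-sensitive cells, and Bak1 averaged 9.43 ± 3.15 CPM in apoptosis-sensitive cells and 40.1 ± 8.10 CPM in young wild-type cells (SD, n = 3 each), as the labels have it. None of the 12 B cell markers examined was at 0 in any group, and their summed level was 17610 to 22310 CPM in old and 24000 to 24770 CPM in young wild-type libraries, and 21610 to 22770 CPM in apoptosis-resistant and 22930 to 23820 CPM in apoptosis-sensitive libraries. The first principal component (31.9% of the variance) set replicate 1 of old and of young wild type, the libraries whose labels give 2006 and not 2016 as the year of collection, apart from the other 10. Libraries with the same replicate number within a wild-type or a Bak1-deficient pair of groups shared a collection date. No date was shared between wild-type and Bak1-deficient mice.

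The family was represented at very unequal levels. Levels of different genes were compared roughly, per kilobase of the union of their exons. This measure understates genes whose transcripts are shorter than that union, and the sums and shares below depend on it. Bid stood at 11.0 to 16.4 CPM per kilobase in all 12 libraries and Bad at 2.76 to 5.65. Bmf covered the widest range, from 2.08 CPM per kilobase in the lowest old library to 49.4 in the highest apoptosis-resistant library. Summed over the 6 genes, the level was 39.4, 43.0 and 43.7 CPM per kilobase in old and 46.0, 52.6 and 53.7 in young wild-type libraries, and 106.8, 108.9 and 119.6 in apoptosis-resistant and 56.6, 56.4 and 83.0 in apoptosis-sensitive libraries. The apoptosis-resistant libraries thus had the highest sums, with no overlap with any other library, as the stacked plot of the 6 genes shows. Bid made up the largest part of the sum in each old library (32.7% to 37.5%), while Bmf did so in each apoptosis-resistant library (31.0% to 46.2%). Pmaip1 gave 46.8% of the sum in apoptosis-sensitive replicate 3, against 17.0% and 19.8% in the other libraries of that group. Set against the summed level of 8 pro-survival genes (Bcl2, Bcl2l1, Mcl1, Bcl2l2, Bcl2l10 and 3 Bcl2a1 copies, among which reads cannot be divided with certainty), the sum for BH3-only genes gave a ratio of 0.330 to 0.354 in apoptosis-resistant and 0.120 to 0.153 in apoptosis-sensitive libraries, and of 0.102 to 0.113 in old and 0.103 to 0.131 in young wild-type libraries. These sums are a description and were not tested.

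**Figure D1:**
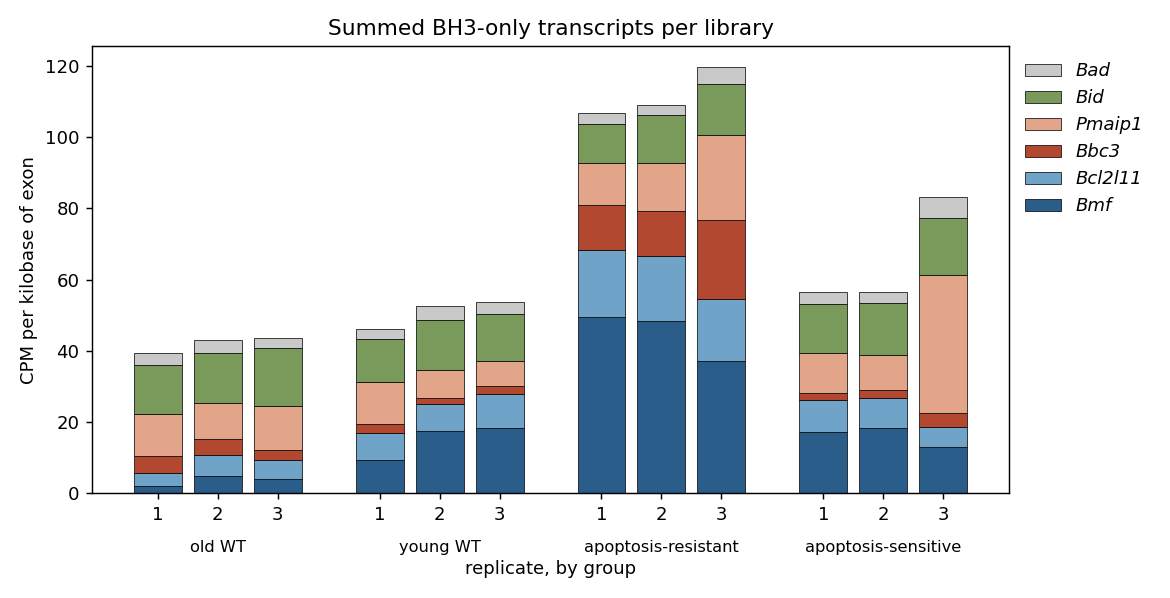
Summed level of the 6 BH3-only genes per library, in CPM per kilobase of exon (bar height), with each gene's part in its own colour and the libraries ordered by group. The 3 apoptosis-resistant bars reach 106.8 to 119.6, above every other bar, and the Bmf part is smallest in old wild type.

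**Figure D2:**
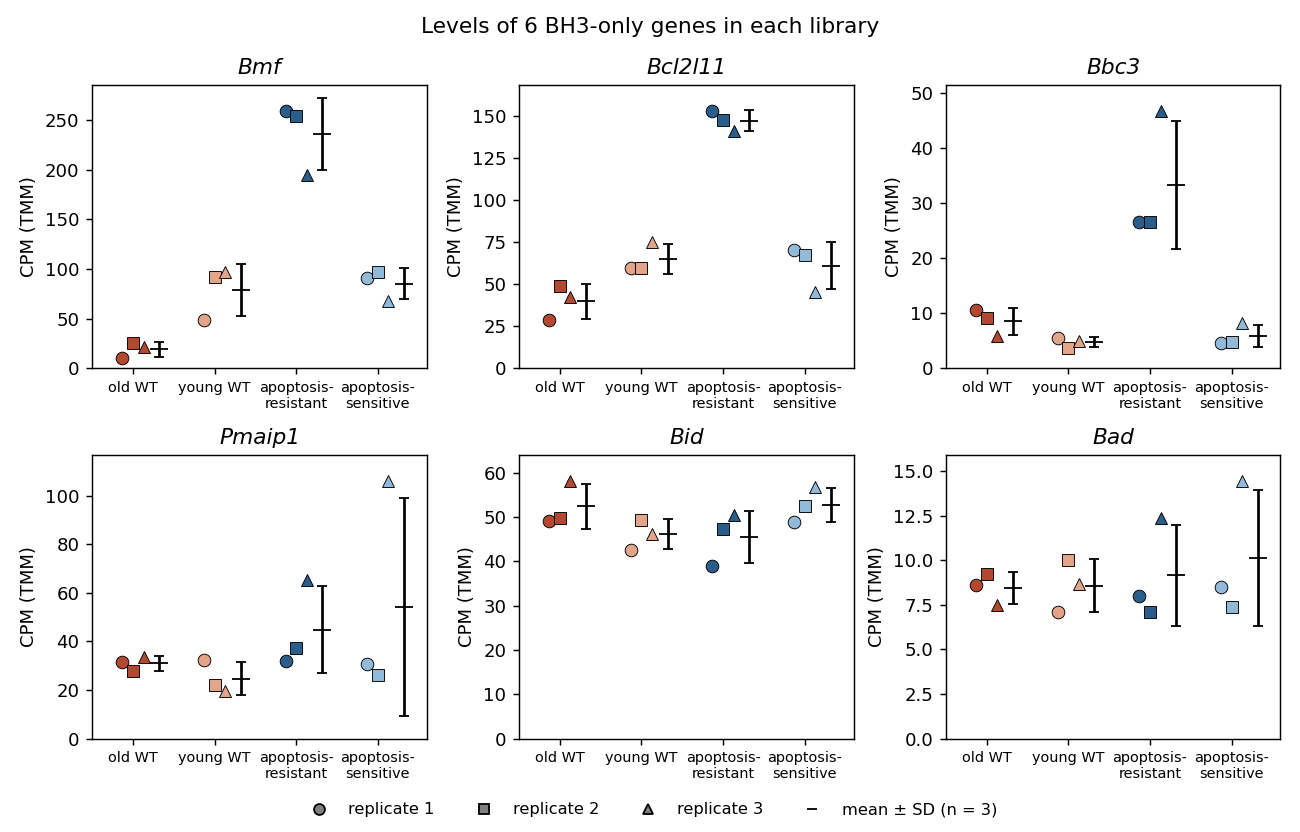
Level of each gene in CPM, after TMM scaling (trimmed mean of M values), in each of the 12 libraries, with the mean ± SD (n = 3) beside each group. Bmf, Bcl2l11 and Bbc3 in apoptosis-resistant cells lie above all 9 other libraries, whereas Bid and Bad overlap between all groups.

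Apoptosis-resistant and apoptosis-sensitive cells both lack BAK1 and differ in BAX. Setting them side by side asks which initiators differ between populations with and without BAX. Whole sorted populations were measured, so a larger share of cells with high levels and more RNA per cell cannot be told apart. Bbc3 was higher in the apoptosis-resistant cells, at 33.3 ± 11.7 CPM against 5.91 ± 2.05 CPM in apoptosis-sensitive cells (SD, n = 3 each). Bcl2l11 and Bmf had higher values in all 3 apoptosis-resistant libraries as well but did not pass the threshold of an adjusted p of 0.05. The libraries of the groups overlapped for Pmaip1, Bid and Bad. Of the 6 genes 1 was called, where 0.0441% of all 13592 genes were (6 genes).

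Among the direct activators, Bbc3 (Entrez gene 170770, chromosome 7 of GRCm38.p6, bases 16308398 to 16318334) reached 26.6, 26.6 and 46.8 CPM in apoptosis-resistant libraries, against 4.68, 4.76 and 8.28 CPM in apoptosis-sensitive libraries. The groups do not overlap. PUMA, its product, is known as a p53-induced killer that B and other lymphoid cells also use when growth factors are lacking. The log2 fold change was 2.49 ± 0.34 (SE, 95% interval 1.74 to 3.24, adjusted p = 0.0395), the fourth smallest p of all genes tested. Replicate 3 was the highest library in both groups, and the ratio within each collection date was nearly constant, with log2 values of 2.48, 2.45 and 2.48. Bcl2l11 (Entrez gene 12125, chromosome 2, 128126038 to 128162547) had 153, 147.3 and 140.7 CPM in apoptosis-resistant libraries, against 70.3, 67.6 and 45.2 CPM in apoptosis-sensitive libraries. Every apoptosis-resistant library was again above every apoptosis-sensitive one. The log2 fold change of Bcl2l11 was 1.27 ± 0.23 (95% interval 0.78 to 1.76, adjusted p = 0.10). Bid (Entrez gene 12122, chromosome 6, 120893119 to 120917062), whose protein is cut by caspase 8 and so joins death receptors to the mitochondria, had 39.0, 47.3 and 50.5 CPM in apoptosis-resistant libraries, against 49.0, 52.6 and 56.8 CPM in apoptosis-sensitive libraries. These ranges overlap, and the interval of its log2 fold change ran from -0.55 to 0.12. Reads of Bid are uncertain in part, since 628 of its exon bases lie within the span of Bcl2l13 on the opposite strand and the strand setting of the counting was not given.

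Among the genes whose products occupy pro-survival proteins, Bmf (Entrez gene 171543, chromosome 2, 118528757 to 118549686) had 259.3, 254.0 and 194.6 CPM in apoptosis-resistant libraries, against 90.9, 97.1 and 68.2 CPM in apoptosis-sensitive libraries. Again the groups do not overlap. The log2 fold change of Bmf was 1.47 ± 0.32 (95% interval 0.77 to 2.17, adjusted p = 0.195), and within collection dates it was 1.51, 1.39 and 1.51. Pmaip1 (Entrez gene 58801, chromosome 18, 66458604 to 66465558), another p53 target, had 32, 37.2 and 65.4 CPM in apoptosis-resistant libraries, against 30.6, 26.2 and 106.2 CPM in apoptosis-sensitive libraries. Its replicate 3 was far above the others in both groups, and its log2 ratios within dates differed in sign, at 0.07, 0.50 and -0.70. Bad (Entrez gene 12015, chromosome 19, 6941861 to 6951905), which phosphorylation and 14-3-3 proteins hold inactive, had 8.0, 7.09 and 12.4 CPM in apoptosis-resistant libraries, against 8.52, 7.35 and 14.5 CPM in apoptosis-sensitive libraries. The groups overlap, the interval of its log2 fold change ran from -0.81 to 0.52, and 587 of its exon bases lie within the span of Gpr137 on the opposite strand.

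The groups of libraries did not overlap for 3 of the 6 genes, all of them higher in apoptosis-resistant cells, where 6.32% of all genes did the same and 14.6% did not overlap in either direction. Collection date was shared by the pairs of libraries, and with the date as a block Bmf (1.47 ± 0.09, adjusted p = 1.66e-05), Bcl2l11 (1.29 ± 0.15, 0.00192) and Bbc3 (2.49 ± 0.19, 0.00014) all passed. In that fit 3.41% of all genes were called. DESeq2 called the same 3 genes, with adjusted p values of 0.00368 for Bmf, 0.000136 for Bcl2l11 and 4.82e-09 for Bbc3, and 0.789% of all genes. Without the replicate 1 libraries of wild type, which are not part of the comparison but enter its estimate of spread, Bmf (adjusted p = 0.00909), Bcl2l11 (0.0187) and Bbc3 (0.0212) passed, with 0.225% of all genes called. In the edgeR fit of all libraries without the block, the call of Bbc3 was lost without any of apoptosis-resistant replicates 1, 2 and 3 (adjusted p = 0.124, 0.117 and 0.165), apoptosis-sensitive replicates 1 and 2 (0.205 and 0.227), old replicate 2 (0.0532) or young replicates 2 and 3 (0.0532 and 0.074), and with only the 6 Bak1-deficient libraries fitted (0.0634, with 0.0395% of all genes called). Its log2 fold change stayed between 2.17 and 2.83 when single libraries were left out. Summed granulocyte markers stood at 70.6, 29.9 and 68.0 CPM in apoptosis-resistant libraries, against 752, 80.3 and 142 CPM in apoptosis-sensitive libraries, with 0 of 10 passing and none at 0 in either group. Summed erythroid markers stood at 71.6, 33.9 and 48.0 CPM in apoptosis-resistant libraries, against 229.3, 41.0 and 140.7 CPM in apoptosis-sensitive libraries, with 0 of 7 tested passing and none at 0. With the date block 1 granulocyte and 1 immature B cell marker (Cd93) fell, 1 monocyte marker rose and no erythroid marker passed. Summed immature B cell markers overlapped, at 98.6, 65.0 and 65.7 CPM in apoptosis-resistant against 81.6, 77.3 and 77.7 CPM in apoptosis-sensitive libraries. Of the 8 tested 0 passed without the block, and their median log2 fold change was -0.68, against -0.02 over all genes. Only 1 of the 8, Rag1, had a log2 fold change above 0 (33.8 ± 10.9 CPM in apoptosis-resistant against 10.8 ± 6.35 CPM in apoptosis-sensitive cells). The part of all these cells in the results was not tested.

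Old and young wild-type mice were set side by side to ask which initiators differ with age. Bmf fell with age, to 19.1 ± 7.35 CPM in old against 79.2 ± 26.2 CPM in young cells (SD, n = 3 each). It was the only member called, where 2.01% of all genes were called and 0.309% were called as lower. Bcl2l11 had lower and Bbc3 higher values in all 3 old libraries, without passing the threshold, and Pmaip1, Bid and Bad overlapped between old and young. Since whole sorted populations were measured, fewer cells of a type and less RNA per cell cannot be told apart.

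Bmf had 10.9, 25.1 and 21.4 CPM in old libraries, against 49.1, 91.9 and 96.7 CPM in young libraries. The groups are far apart, with every old library well below the lowest young one. Replicate 1, the date that stood apart on the first principal component, was the lowest library of both groups. The log2 fold change was -2.05 ± 0.33 (SE, 95% interval -2.77 to -1.33, adjusted p = 0.0105), and within the 3 collection dates it was -2.16, -1.87 and -2.17. Bcl2l11 had 28.6, 48.8 and 42.3 CPM in old libraries, against 59.9, 59.9 and 75.1 CPM in young libraries. All old libraries were below all young ones, by a log2 fold change of -0.70 ± 0.22 (95% interval -1.19 to -0.22, adjusted p = 0.169). Bbc3 had 10.6, 9.16 and 5.86 CPM in old libraries, against 5.59, 3.77 and 5.01 CPM in young libraries. The lowest old library was just above the highest young one, and the log2 fold change was 0.84 ± 0.34 (95% interval 0.11 to 1.58, adjusted p = 0.33).

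Pmaip1 had 31.7, 27.7 and 33.7 CPM in old libraries, against 32.3, 21.9 and 19.5 CPM in young libraries, with an interval of the log2 fold change from -0.70 to 1.37. Bid had 49.2, 49.9 and 58.2 CPM in old libraries, against 42.6, 49.4 and 46.2 CPM in young libraries, an interval from -0.15 to 0.52. Bad had 8.61, 9.21 and 7.47 CPM in old libraries, against 7.07, 10.0 and 8.64 CPM in young libraries, an interval from -0.69 to 0.64. For these 3 genes the old and young libraries overlap, and the interval is narrowest for Bid. Old and young libraries did not overlap for Bmf, Bcl2l11 and Bbc3, 3 of 6 genes, where 16.1% of all genes did not overlap in either direction.

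With the collection date as a block, Bmf (-2.07 ± 0.10, adjusted p = 8.35e-07), Bcl2l11 (-0.73 ± 0.15, 0.0111) and Bbc3 (0.82 ± 0.20, 0.0179) passed, in a fit that called 14.9% of all genes. The call of Bmf was kept without any single library (highest adjusted p = 0.0429) and without the replicate 1 pair (-2.02 ± 0.19, 0.00276, with 1.64% of all genes called), and was lost in a fit of the 6 wild-type libraries alone (adjusted p = 0.138), a fit that called 0.00756% of all genes. Markers of other cells moved with age beside Bmf. Of 8 immature B cell markers tested 2 fell, with sums of 23.6, 14.6 and 30.8 CPM in old libraries against 58.4, 68.4 and 98.9 CPM in young libraries, and Vpreb2 at 0 in all old libraries. Of 5 stromal markers tested 1 rose, with sums of 17.9, 84.2 and 145.9 CPM in old libraries against 2.55, 3.47 and 13 CPM in young libraries, and of 10 monocyte and macrophage markers 1 rose, with sums of 60.2, 149.6 and 244.6 CPM in old libraries against 35.9, 30.9 and 158.8 CPM in young libraries. None of the stromal or monocyte markers was at 0 in either group. T cell (2 of 10), NK cell (1 of 5) and plasmacytoid dendritic cell markers (1 of 4) also rose. With the date block 5 of the 8 immature B cell markers and 2 of the 12 B cell markers (Cr2 and Fcer2a) fell, and all 5 stromal markers tested, 6 monocyte, 7 T cell, 4 NK cell, 2 plasmacytoid dendritic cell and 1 granulocyte marker rose. The part of these cells in the level of Bmf was not tested.

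**Figure D3:**
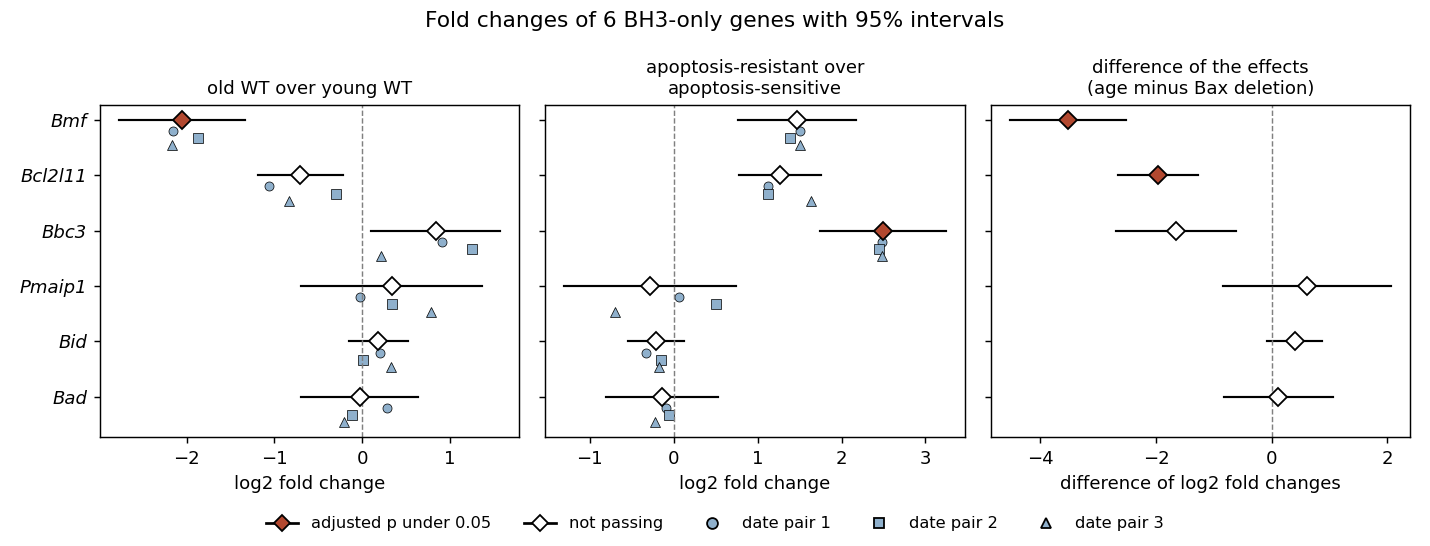
Log2 fold change of each gene (diamonds) with its 95% interval (lines) for old over young wild type, apoptosis-resistant over apoptosis-sensitive cells, and one effect minus the other. Small symbols in the first 2 panels are the log2 ratios within each shared collection date. Filled diamonds passed an adjusted p of 0.05. Bmf lies at -2.05 in the age panel and at 1.47 in the Bax panel.

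Whether age and loss of BAX moved these genes differently was tested directly as the difference between the effects (age effect minus Bax deletion effect), which share no library. The age effect was measured in wild-type cells and the Bax deletion effect in Bak1-deficient cells, on other collection dates. In this difference, age against Bax deletion cannot be told apart from Bak1 background and date. Bmf and Bcl2l11 passed and the other 4 genes did not, where 0.25% of all genes were called. For Bmf, lower in old than in young cells and with higher values in apoptosis-resistant than in apoptosis-sensitive cells, the difference was -3.52 ± 0.46 on the log2 scale (95% interval -4.52 to -2.51, adjusted p = 0.0195). For Bcl2l11 it was -1.97 ± 0.32 (95% interval -2.66 to -1.28, adjusted p = 0.0307). For Bbc3, with higher values on both sides, it was -1.65 ± 0.47 (adjusted p = 0.257, and 0.0061 with the date block, where 7.03% of all genes were called). The differences of Pmaip1 (0.61 ± 0.67), Bid (0.40 ± 0.22) and Bad (0.11 ± 0.43) had adjusted p values of 0.847 to 1.

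With the date block, where 7.03% of all genes were called, the differences of Bmf (-3.54 ± 0.13, adjusted p = 1.28e-07) and Bcl2l11 (-2.02 ± 0.21, 0.000854) also passed. Without the block, single libraries were left out in turn. The call of the Bmf difference was then lost without old replicate 3 (adjusted p = 0.0542), apoptosis-resistant replicate 1 (0.0649) or apoptosis-sensitive replicate 1 or 2 (0.071 and 0.0543), with values between -3.76 and -3.25. That of Bcl2l11 was kept in 3 of 12 such fits, those without old replicate 1 or 2 or young replicate 1, and lost without old replicate 3 (0.0813), young replicates 2 and 3 (0.0728 and 0.079), apoptosis-resistant replicates 1, 2 and 3 (0.103, 0.102 and 0.0691) or apoptosis-sensitive replicates 1, 2 and 3 (0.0898, 0.0764 and 0.0561), with values between -2.14 and -1.79.

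**Figure D4:**
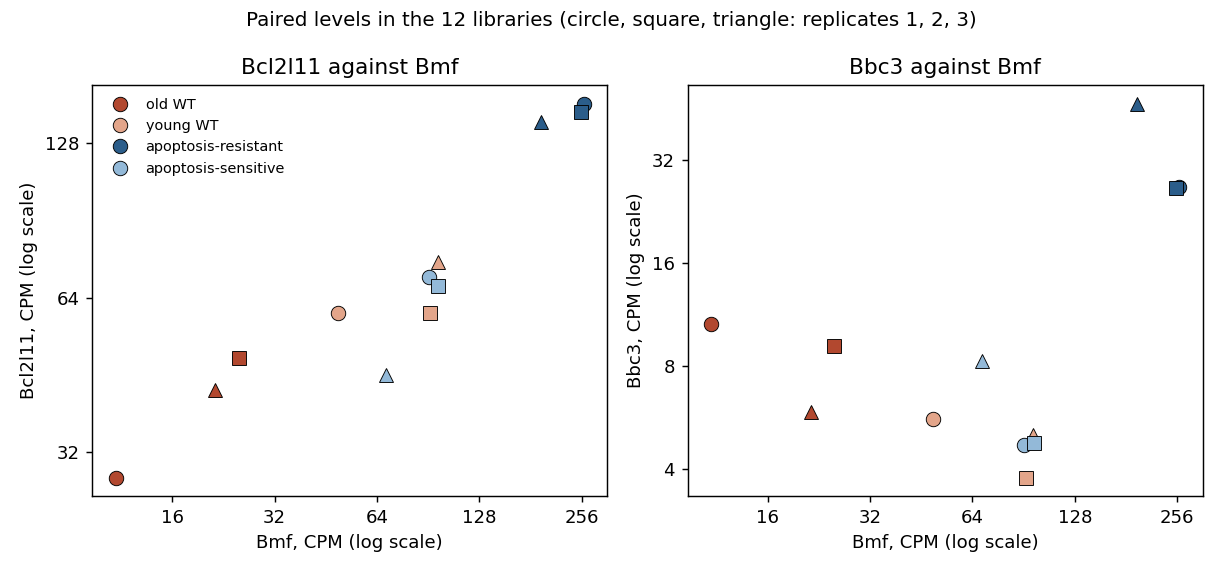
Level of Bcl2l11 (left) and Bbc3 (right) against that of Bmf in the 12 libraries, both axes in CPM on a log scale, coloured by group and shaped by replicate. Both panels have the 3 apoptosis-resistant libraries at the upper right. The old libraries lie at the lowest levels of Bmf, with Bcl2l11 at 28.6 to 48.8 CPM beside 45.2 CPM in apoptosis-sensitive replicate 3, and with Bbc3 above that in the young libraries.

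The comparisons of the Bak1-deficient groups with young wild type have no collection date in common, so that genotype and date cannot be told apart, and the young libraries also serve the age comparison. No member was called in apoptosis-sensitive against young wild-type cells, and neither was Bak1 itself (log2 fold change -2.09 ± 0.34, adjusted p = 0.135), so that the absence of calls says little. In apoptosis-sensitive against young wild-type cells Bmf averaged 85.4 ± 15.2 CPM against 79.2 ± 26.2 CPM, Bcl2l11 61.1 ± 13.8 CPM against 65.0 ± 8.79 CPM, and Bbc3 5.91 ± 2.05 CPM against 4.79 ± 0.93 CPM (SD, n = 3 each). For none of the 6 genes were the groups free of overlap, where 8.81% of all genes were, and for these 3 genes the intervals of the log2 fold change ran from -0.58 to 0.80, from -0.57 to 0.40 and from -0.42 to 1.05. None of the 13592 genes tested was called by the edgeR fit of all 12 libraries in this comparison (0%), where 371 had an unadjusted p under 0.05. DESeq2 called 15 (0.109%). Pmaip1 had the lowest p of the members, with 54.3 ± 45.0 CPM in apoptosis-sensitive cells against 24.6 ± 6.79 CPM in young wild-type cells (log2 fold change 1.15 ± 0.48, adjusted p = 0.824), and a log2 fold change of 0.22 without apoptosis-sensitive replicate 3. Bid (0.20 ± 0.15) and Bad (0.24 ± 0.31) had adjusted p values of 0.824 and 0.841.

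In apoptosis-resistant against young wild-type cells Bbc3 rose (log2 fold change 2.81 ± 0.35, adjusted p = 0.00743), where 0.162% of all genes were called. This call was kept without any single library (highest adjusted p = 0.0472). Bmf (1.57 ± 0.32, adjusted p = 0.116) and Bcl2l11 (1.18 ± 0.22, 0.0805) did not pass in edgeR and were called by DESeq2 (0.000779 and 0.000391), with 0.91% of all genes. All 3 genes were higher in every apoptosis-resistant library than in every young one, where 6.64% of all genes did the same and 12.9% did not overlap in either direction. Bid averaged 45.6 ± 5.94 CPM in apoptosis-resistant and 46.1 ± 3.39 CPM in young wild-type cells, an interval of the log2 fold change from -0.35 to 0.32. Pmaip1 (0.87 ± 0.47, adjusted p = 0.811) and Bad (0.09 ± 0.31, 0.934) did not pass.

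The order of the 4 groups differs between the genes. Bmf averaged 19.1 CPM in old wild type, 79.2 in young wild type, 85.4 in apoptosis-sensitive cells and 236 in apoptosis-resistant cells, and the 2 middle groups overlap. Bcl2l11 followed a similar order, with 39.9 CPM in old wild type, 61.1 in apoptosis-sensitive, 65.0 in young wild type and 147 in apoptosis-resistant cells, where each of the 3 lower groups overlaps with its neighbour in that order. Bbc3 ran from 4.79 CPM in young wild type over 5.91 in apoptosis-sensitive and 8.53 in old wild type to 33.3 in apoptosis-resistant cells, where again each of the 3 lower groups overlaps with its neighbour in that order. The means of Bid (45.6 to 52.8 CPM) and of Bad (8.43 to 10.1 CPM) are close, and neighbouring groups overlap, as they do for Pmaip1, whose means ran from 24.6 CPM in young wild type to 54.3 in apoptosis-sensitive cells.

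The genes whose levels over the 12 libraries were most like those of the members were looked up among 11060 genes, as a description, since the libraries share groups and dates. Both Bmf and Bcl2l11 were most like Lfng, which encodes a glycosyltransferase that modifies Notch receptors (Pearson r of log2 CPM 0.96 and 0.97), and then Nectin1, an adhesion molecule gene (0.95 and 0.95). Next came Mtss1 for Bmf (0.95) and Prss12 for Bcl2l11 (0.95). Lfng averaged 76.6 CPM in old and 102.6 in young wild type, and 154.1 in apoptosis-resistant and 100.6 in apoptosis-sensitive cells. Bbc3 was most like Atf5 (0.94), a transcription factor gene of the integrated stress response, the p53 target gene Phlda3 (0.92) and Trib3 (0.92), a pseudokinase gene of the same stress response. Trib3 averaged 8.44 CPM in apoptosis-resistant cells against 1.07 to 1.22 CPM in the other 3 groups. Pmaip1 was most like Macrod1 (0.93), Egr2 (0.92) and Ccdc174 (0.91), Bid like Phf11b (0.89), Bphl (0.85) and Alad (0.82), and Bad like Ndufb11 (0.94), Lsm4 (0.93) and Bloc1s4 (0.93).

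The lists that follow were tested in the fit without the collection date, and with the date as a block, where 14.9% of all genes were called with age and 3.41% with loss of Bax, more of their genes passed. Genes named from the block fit were chosen after their values were seen. Of 7 pro-survival genes tested none passed in either main comparison without the block. Their median log2 fold change was -0.32 between apoptosis-resistant and apoptosis-sensitive cells, against -0.02 over all genes, and 0.37 with age, against -0.03. Bcl2 averaged 90.3 ± 22.4 CPM in apoptosis-resistant and 168.5 ± 30.2 CPM in apoptosis-sensitive cells (log2 fold change -0.90 ± 0.20, adjusted p = 0.23), and Mcl1 1013 ± 35.1 CPM and 1528 ± 136 CPM (-0.59 ± 0.18, 0.485). With age the lowest p values were those of Bcl2a1d (0.85 ± 0.40, 0.447) and Bcl2a1a (1.84 ± 0.94, 0.527), whose reads are uncertain. With the block Bcl2 (-0.92 ± 0.13, adjusted p = 0.00373) and Mcl1 (-0.59 ± 0.10, 0.0106) fell with loss of Bax, and Bcl2a1b (0.83 ± 0.24, 0.0391) and Bcl2a1d (0.91 ± 0.26, 0.0394) rose with age. Of 2 effectors tested, Bax fell with its own deletion (-3.42 ± 0.40, adjusted p = 0.0135), and with age neither Bak1 (-0.18 ± 0.33, 0.956) nor Bax (-0.10 ± 0.36, 0.983) passed. Bok was too low to test. Of 8 other BH3-only or BH3-like genes 6 were tested and none passed, with or without the block. The lowest p values there were those of Bcl2l15 (1.59 ± 0.79, adjusted p = 0.493) and Bcl2l14 (1.54 ± 0.83, 0.562) with age, and Bcl2l13 (0.15 ± 0.30) and Bcl2l14 (-0.37 ± 0.78) with loss of Bax, both at an adjusted p of 1. Bik, a BH3-only gene known from B cells, averaged at most 0.41 CPM in any group and was not tested, and Hrk, known from neurons, was at 0 in 3 groups.

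In the lists for routes that can switch the members on, some genes passed. Many genes of these lists are targets of a route, and whether any of them acts on the members was not tested. Of 22 integrated stress response genes tested 2 rose with loss of Bax, Trib3 (2.97 ± 0.33, adjusted p = 0.0135) and Atf5 (1.55 ± 0.23, 0.0449), with a list median of 0.05, and none passed with age, where Chac1 (2.17 ± 0.97, 0.416) and Atf5 (0.50 ± 0.22, 0.417) had the lowest p. With the block 4 rose and 1 fell with loss of Bax and none passed with age. Of 23 p53 genes tested, without Bbc3 and Pmaip1, none passed with loss of Bax without the block. Cdkn1a, the cell cycle inhibitor p21, averaged 21.9 ± 1.56 CPM in apoptosis-resistant and 4.78 ± 1.84 CPM in apoptosis-sensitive cells (2.19 ± 0.36, adjusted p = 0.0843), and Phlda3 7.21 ± 1.87 CPM and 0.64 ± 0.51 CPM (3.46 ± 0.78, 0.223). With the date block 5 of the 23 rose, among them Cdkn1a (2.24 ± 0.28, adjusted p = 0.0022), Phlda3 (3.6 ± 0.60, 0.011) and the p53 target gene Zmat3 (0.97 ± 0.17, 0.0124), and 1 fell (Ckap2, -1.48 ± 0.28, 0.0146). With age Fas, the death receptor gene, rose (2.15 ± 0.44, 0.0318). It is 1 of the 23 p53 genes and also 1 of 8 genes of the death receptor route to BID, of which the other 7 did not pass. With the block 2 p53 genes rose and 3 fell with age. Those that fell were Trp53 itself (-0.603 ± 0.119, adjusted p = 0.00754), Btg2 (-0.507 ± 0.109, 0.0111) and Sesn1 (-0.465 ± 0.119, 0.0244). Of the death receptor genes Tnfrsf10b (1.51 ± 0.34, adjusted p = 0.0139) rose with age beside Fas under the block, and both are also in the p53 list. With loss of Bax none of these 8 passed without the block, and Fas (1.36 ± 0.43, 0.524) and Cflar (0.26 ± 0.20, 1) had the lowest p. Fas passed with it (1.23 ± 0.27, adjusted p = 0.0359).

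Without the block, none of 20 FOXO factors and targets passed. Bcl6 (-0.93 ± 0.27, adjusted p = 0.13) and Insr (-0.38 ± 0.19, 0.49) had the lowest p with age, and Trib1 (-1.42 ± 0.43, 0.463) and Insr (0.43 ± 0.19, 0.988) with loss of Bax. Nor, without it, did any of 18 genes for kinases, phosphatases and 14-3-3 proteins that control BAD, where Akt1 (0.24 ± 0.17, 0.734) and Ywhah (-0.36 ± 0.32, 0.824) had the lowest p with age, and Pim2 (-0.76 ± 0.16, 0.185) and Pim3 (-0.46 ± 0.27, 1) with loss of Bax. Of 10 genes for dynein light chains, which tether BIM and BMF, and for turnover of BIM none passed without the block, with Dynll1 (-0.57 ± 0.20, 0.226) and Mapk3 (-0.26 ± 0.20, 0.765) lowest by p with age, and Dusp6 (-1.33 ± 0.49, 0.729) and Btrc (-0.48 ± 0.18, 0.767) with loss of Bax. Of 11 BAFF receptor signalling genes none passed without it. Nfkb2 (-0.52 ± 0.21, 0.342) and Traf2 (-0.23 ± 0.13, 0.599) had the lowest p with age, and Nfkb2 (-0.77 ± 0.21, 0.395) and Relb (-0.39 ± 0.15, 0.787) with loss of Bax. Of 10 genes of the apoptosome and executioner steps, downstream of the members, none passed without the block, with Xiap (-0.45 ± 0.24, 0.56) and Endog (0.64 ± 0.37, 0.618) lowest by p with age, and Casp9 (0.18 ± 0.16, 1) and Cycs (-0.40 ± 0.37, 1) with loss of Bax. These counts stand beside 2.01% of all genes called with age and 0.0441% with loss of Bax. With the block, 1 FOXO gene rose and 5 fell with age, among them Bcl6 (-0.92 ± 0.12, adjusted p = 0.00106) and Foxo1 (-0.41 ± 0.09, 0.012), and 1 rose with loss of Bax. None of the genes that control BAD passed with age under the block, and 1 rose and 1 fell (Pim2, -0.76 ± 0.10, 0.00224) with loss of Bax. Of the dynein and BIM turnover genes 1 fell with age and 2 fell with loss of Bax, of the BAFF receptor genes 2 fell in each comparison, among them Nfkb2 in both, and of the apoptosome and executioner genes 2 fell with age and none passed with loss of Bax.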

How the data were processed

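RNA was measured in 12 libraries of sorted bone marrow B cells. Per the labels' protocols, a Qiagen kit yielded the RNA, and TruSeq v2 chemistry turned its polyadenylated part into libraries. The authors deposited whole-number read counts per gene in 1 table, made with Subread and featureCounts on mm10 per the submitters' processing notes. Versions, annotation, strand setting and filters are not given in the sources used here. RefSeq (GRCm38.p6) gave symbols for 25275 of 27179 Entrez genes, and the union of GENCODE M21 exons gave lengths. The table had 0 unused sample columns.

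Genes were kept by filterByExpr (minimum 10 reads), which left 13592. Counts were scaled by TMM and fitted by group over all 12 libraries with the robust quasi-likelihood test of edgeR 4.0.16 under R 4.3.3 (8 residual degrees of freedom). The Benjamini-Hochberg method adjusted all p values across the genes tested, with a threshold of 0.05, and every p here is two-sided. The SE of a log2 fold change is its size divided by the root of F. Where no tool is named, an adjusted p is edgeR's. Log2 CPM used a prior count of 2. The script was tested on simulated data.

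Alternatives were RLE scaling, no filter, DESeq2 1.42.0, only the libraries compared, collection date as a block (4 residual degrees of freedom), leaving out each library, and leaving out the libraries dated 2006. Replicate numbers pair libraries because the labels give them a shared date, and deviations from group means correlated at 0.512 to 0.745 in the wild-type pairs and 0.284 to 0.487 in the Bak1-deficient pairs. The series calls the replicates biological, but whether each came from a separate mouse was not given in the sources used here. Every pair of replicates differed by more than counting noise.

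All 6 members were named in every comparison. Of 11 pathway lists, up to 4 passing genes were named per main comparison, or the 2 of lowest p where none passed, and a few genes passing with the date block were added after their values were seen. For likeness, the 3 genes of highest Pearson r were named, with a mean of at least 1 CPM and without predicted genes or antigen receptor segments. The members and lists were chosen with earlier results of these data known.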

Additional observations from a re-analysis of the deposited data

Results flagged for a closer look

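Both results below stood out because the effect of age and the effect of Bax deletion differed by a test of the difference itself. The effect of age is from wild-type and that of Bax deletion from Bak1-deficient cells, collected on other dates, so that background and date enter the difference. Bmf had a log2 fold change of -2.05 in old against young wild type and of 1.47 in apoptosis-resistant against apoptosis-sensitive cells, a difference of -3.52 (adjusted p = 0.0195). Bcl2l11 had -0.70 and 1.27, a difference of -1.97 (adjusted p = 0.0307). In both genes all 3 date pairs were below 0 for age and above 0 for Bax deletion.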

How the results depend on the processing

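Of 522 values of single genes under the alternatives, 484 kept their side of the threshold, 23 no longer passed and 15 newly passed. For 0 values did the sign change where the main or the alternative fit passed. Values that passed in neither fit could change sign. Pmaip1 with loss of Bax, for example, ran from -0.65 to 0.68 with 1 library left out. The number of the 6 genes called with age was 1, and became 0 with only the wild-type libraries fitted and 3 with the replicate block on collection date. With loss of Bax it was 1, and became 3 in DESeq2, 3 with the block, 3 without the libraries dated 2006 and 0 with only the Bak1-deficient libraries. Against young wild type it was 1 for apoptosis-resistant cells, and became 3 in DESeq2 and 2 without the libraries dated 2006, and 0 for apoptosis-sensitive cells under every alternative run. No block could be fitted for these last comparisons. With 1 library left out the number stayed at 1 for age, ran from 0 to 2 for loss of Bax and for the difference of the effects (2 with all libraries), stayed at 0 for loss of Bak1, and ran from 1 to 3 for loss of both. RLE scaling and no filter changed none of these numbers. The cause of these shifts was not tested. Fits of 6 libraries have fewer samples and their own estimate of spread, and the part of each was not tested either.

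Over all genes, 273 were called with age, 746 in DESeq2, 2028 with the block, 1 with only the wild-type libraries, and 75 to 267 with 1 library left out. With loss of Bax 6 were called, 11 without a filter, 127 in DESeq2, 463 with the block, 31 without the libraries dated 2006, and 0 to 13 with 1 library left out. For the difference 34 were called, 247 in DESeq2, 955 with the block, 75 without the libraries dated 2006, and 2 to 37 with 1 left out. Against young wild type 22 were called for apoptosis-resistant cells, 34 without a filter, 143 in DESeq2, 12 with only the libraries compared, and 10 to 31 with 1 left out. For apoptosis-sensitive cells the number was 0, with 3 without a filter, 15 in DESeq2, 3 without the libraries dated 2006, and 0 to 4 with 1 left out. Bbc3 and Bad had the fewest reads, 68 to 979 and 86 to 309 per library.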
